A study of Mus musculus with 3 samples.

Results

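The genes described here follow a B cell from lineage commitment to antibody secretion, and were taken by symbol from a list of 35. Of these, 34 were found among 23282 entries, each 1 time, and Ighm, the gene of the µ heavy chain, was not analysed here. All 34 passed the minimum of 30 reads summed over the libraries, with totals from 39 to 17937 reads. The samples were 3 bone marrow libraries from male wild type C57BL/6 mice, an inbred laboratory strain, aged 6 weeks. Sterile water, the vehicle of the series, was given by gavage over 28 days and marrow was collected on day 29, with red cells lysed before RNA was isolated. Samples given Asari Radix et Rhizoma, the herbal root preparation named in the series design, were not analysed here, so every comparison below is between libraries of 1 group. Whether each library came from its own mouse is not stated, and the spread between them may be technical.

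B cells arise in the marrow from lymphoid progenitors. Transcription factors commit the cell, the RAG recombinase assembles the heavy chain gene, and the new heavy chain is first tested together with a surrogate light chain. A cell that passes rearranges its light chain, displays a complete receptor that signals through the CD79 heterodimer, leaves for the spleen and lymph nodes, and may return to the marrow as an antibody-secreting plasma cell.

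Levels are reads per 1000000 gene-assigned reads (CPM). The library kit yields about 1 fragment per transcript, so levels of different genes are set side by side with no length correction. Depth was 8104828 to 9168435 reads per library, and a count of 0 would allow up to 0.327 to 0.370 CPM. "Differed" below means a Benjamini-Hochberg adjusted p under 0.05, over 11833 genes, when every library in turn was set against the other 2 by a two-sided exact binomial test. That test sets the libraries against counting noise only, and p also falls with read number. The typical gene was 0.15 log2 units higher in replicate 1 than in the other libraries on library totals, and 0.01 higher with trimmed-mean (TMM) scaling. Directions are therefore counted on both scales, and the members whose order or call changes with TMM scaling are named.

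The start-site windows of 6 members are shown because they carry letters that bear on the members themselves. RefSeq windows (GRCm38.p6, from 250 bases before to 50 bases after a gene start) were found for 29 members, 34 windows in all. Pou2af1 encodes the partner of octamer-binding factors, and the octamer ATTTGCAT, searched on both strands, stood in the windows of 2 members, Vpreb3 and Blnk, and in 1.74% of all 32851 windows. Gene starts depend on the annotation. GENCODE M21, used for the gene positions further below, starts Vpreb3 at 75943057, and starts Vpreb3, Blnk, Cd22 and Vpreb1 outside the windows shown. The octamer is in capitals below, 45 bases before the RefSeq start of Vpreb3 (chr10:75948050-75948349, plus strand) and 130 bases before that of Blnk (chr19:40994172-40994471, minus strand).
Vpreb3: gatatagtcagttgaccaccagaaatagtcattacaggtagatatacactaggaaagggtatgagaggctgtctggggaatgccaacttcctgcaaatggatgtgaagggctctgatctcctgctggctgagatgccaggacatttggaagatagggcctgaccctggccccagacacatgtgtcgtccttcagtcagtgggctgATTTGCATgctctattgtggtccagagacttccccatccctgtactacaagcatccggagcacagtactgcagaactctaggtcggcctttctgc
Blnk: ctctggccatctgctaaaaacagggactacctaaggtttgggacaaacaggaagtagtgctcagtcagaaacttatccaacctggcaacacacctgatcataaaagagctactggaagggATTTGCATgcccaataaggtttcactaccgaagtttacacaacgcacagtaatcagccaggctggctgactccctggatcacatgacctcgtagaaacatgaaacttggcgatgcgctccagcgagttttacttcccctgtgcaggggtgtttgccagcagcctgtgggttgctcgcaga
The palindrome that EBF factors bind, here TCCC and GGGA with any 2 bases between them, reads alike on both strands and stood in the windows of Cd22 (chr7:30878979-30879278, minus strand) and Foxo1 (chr3:52268087-52268386, plus strand), and in 0.904% of all windows. Its match is in capitals.
Cd22: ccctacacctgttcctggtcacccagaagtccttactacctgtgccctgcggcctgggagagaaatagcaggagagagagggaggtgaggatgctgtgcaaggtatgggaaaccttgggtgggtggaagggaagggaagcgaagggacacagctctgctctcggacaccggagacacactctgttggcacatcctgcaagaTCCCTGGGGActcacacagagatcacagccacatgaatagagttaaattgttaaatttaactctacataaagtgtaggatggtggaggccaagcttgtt
Foxo1: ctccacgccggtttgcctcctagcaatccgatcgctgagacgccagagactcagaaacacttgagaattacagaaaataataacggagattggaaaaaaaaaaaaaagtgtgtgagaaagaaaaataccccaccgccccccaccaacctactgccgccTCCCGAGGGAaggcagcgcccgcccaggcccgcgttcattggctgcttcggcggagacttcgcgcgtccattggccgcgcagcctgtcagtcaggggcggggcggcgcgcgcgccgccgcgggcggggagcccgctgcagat
Vpreb1 (chr16:16869206-16869505, minus strand) and Vpreb2 (chr16:17980315-17980614, plus strand) are shown as near copies of each other. Their windows, which start 144 bases apart on the shared sequence, were identical at 153 of 156 overlapping bases, and capitals mark the longest run without a mismatch, 91 bases.
Vpreb1: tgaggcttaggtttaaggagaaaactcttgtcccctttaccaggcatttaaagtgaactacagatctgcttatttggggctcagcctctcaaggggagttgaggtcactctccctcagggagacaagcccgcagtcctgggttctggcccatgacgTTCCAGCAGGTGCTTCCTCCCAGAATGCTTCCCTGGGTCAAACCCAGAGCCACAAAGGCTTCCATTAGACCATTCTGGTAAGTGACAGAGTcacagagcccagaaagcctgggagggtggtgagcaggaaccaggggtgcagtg
Vpreb2: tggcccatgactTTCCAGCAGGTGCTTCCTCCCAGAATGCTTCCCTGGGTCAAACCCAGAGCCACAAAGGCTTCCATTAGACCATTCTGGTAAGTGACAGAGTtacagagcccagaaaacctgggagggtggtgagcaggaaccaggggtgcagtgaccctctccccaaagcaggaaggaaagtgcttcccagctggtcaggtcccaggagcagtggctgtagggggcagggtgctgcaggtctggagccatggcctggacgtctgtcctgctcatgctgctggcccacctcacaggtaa
The E-box CAGGTG, the core that E proteins such as Tcf3 bind, was searched on both strands and lay in 16 of the 34 windows of the 29 members (47.1%), both Vpreb genes among them, and in 20.2% of all windows. Some genes have more than 1 window, and windows of 1 gene can share sequence. These matches describe letters in a window and were not tested as binding sites.

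Across all stages the members differed between libraries in 2 main ways. Ebf1, Bach2, Vpreb3, Blnk and Fcrla were low in replicate 3, while Dntt, Vpreb1 and Cd38 were high in replicate 1. A further group, Bank1, Btk and Mzb1, stood nearly level. Of the 34 members, 25 differed between libraries, where 56.5% of all tested genes did. All 25 had at least 300 reads. In that class they were 25 of 29 members, where 66.0% of all genes differed, and of the 5 members with fewer reads none did, where 42.1% of such genes differed. The median coefficient of variation (CV) was 16.7% over the members and 17.1% over all tested genes, at a median of 1483 and 444 reads. Among genes with at least 300 reads it was 15.9% over the members and 13.2% over all genes. With TMM scaling 22 members differed, and Igll1, Cd24a and Jchain were no longer called.

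Replicate 3 held the lowest level of 22 of 34 members on library totals, where it held the lowest level of 42.4% of all tested genes. With TMM scaling these were 20 members against 32.7% of all genes. Replicate 2 was lowest for 12 members (37.6% of all genes) and for 11 with TMM scaling (34.8%). Replicate 1 was lowest for none on library totals (20% of all genes) and, with TMM scaling, for 3, Cd79a, Btk and Bank1 (32.6%).

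The highest level lay in replicate 1 for 24 members on library totals (49.2% of all genes) and for 15 with TMM scaling (33.2%). It lay in replicate 2 for 10 members (27.9%) and for 14 with TMM scaling (33.5%). Replicate 3 was highest for none on library totals (22.8%) and for 5 with TMM scaling (33.4%). With TMM scaling the highest level moved from replicate 1 to replicate 2 for Foxo1, Blnk, Pou2af1, Xbp1 and Mzb1, and to replicate 3 for Btk, Cd24a, Cr2 and Prdm1. It moved from replicate 2 to replicate 3 for Bank1. The lowest level moved to replicate 1 for Cd79a, Btk and Bank1 alone. Erythroid markers were lowest in replicate 1 for 6 of 6 genes and summed to 66540, 98801 and 99969 CPM, and megakaryocyte and platelet markers summed to 477, 391 and 390 CPM, with none of either list at 0. Their part in the members' order was not tested. Of the 34 members, 15 (44.1%) were called with the smallest p-value for a low replicate 3, where 13.1% of all tested genes were. Another 8 (23.5%) were called with it for a high replicate 1, where 17.6% of all tested genes were. Among all 6687 called genes these classes held 1552 and 2084. Cr2 alone was called for a low replicate 2 (10.2%) and Cd79a alone for a high replicate 2 (7.05%), and no member for a low replicate 1 (3.84%) or a high replicate 3 (4.69%). Without replicate 3 the number of called members was 14, where 38.5% of all genes were then called. Without replicate 1 it was 19 (34.8% of all genes) and without replicate 2 it was 22 (39.0%), so calls were fewer over all genes as well.

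**Figure D1:**
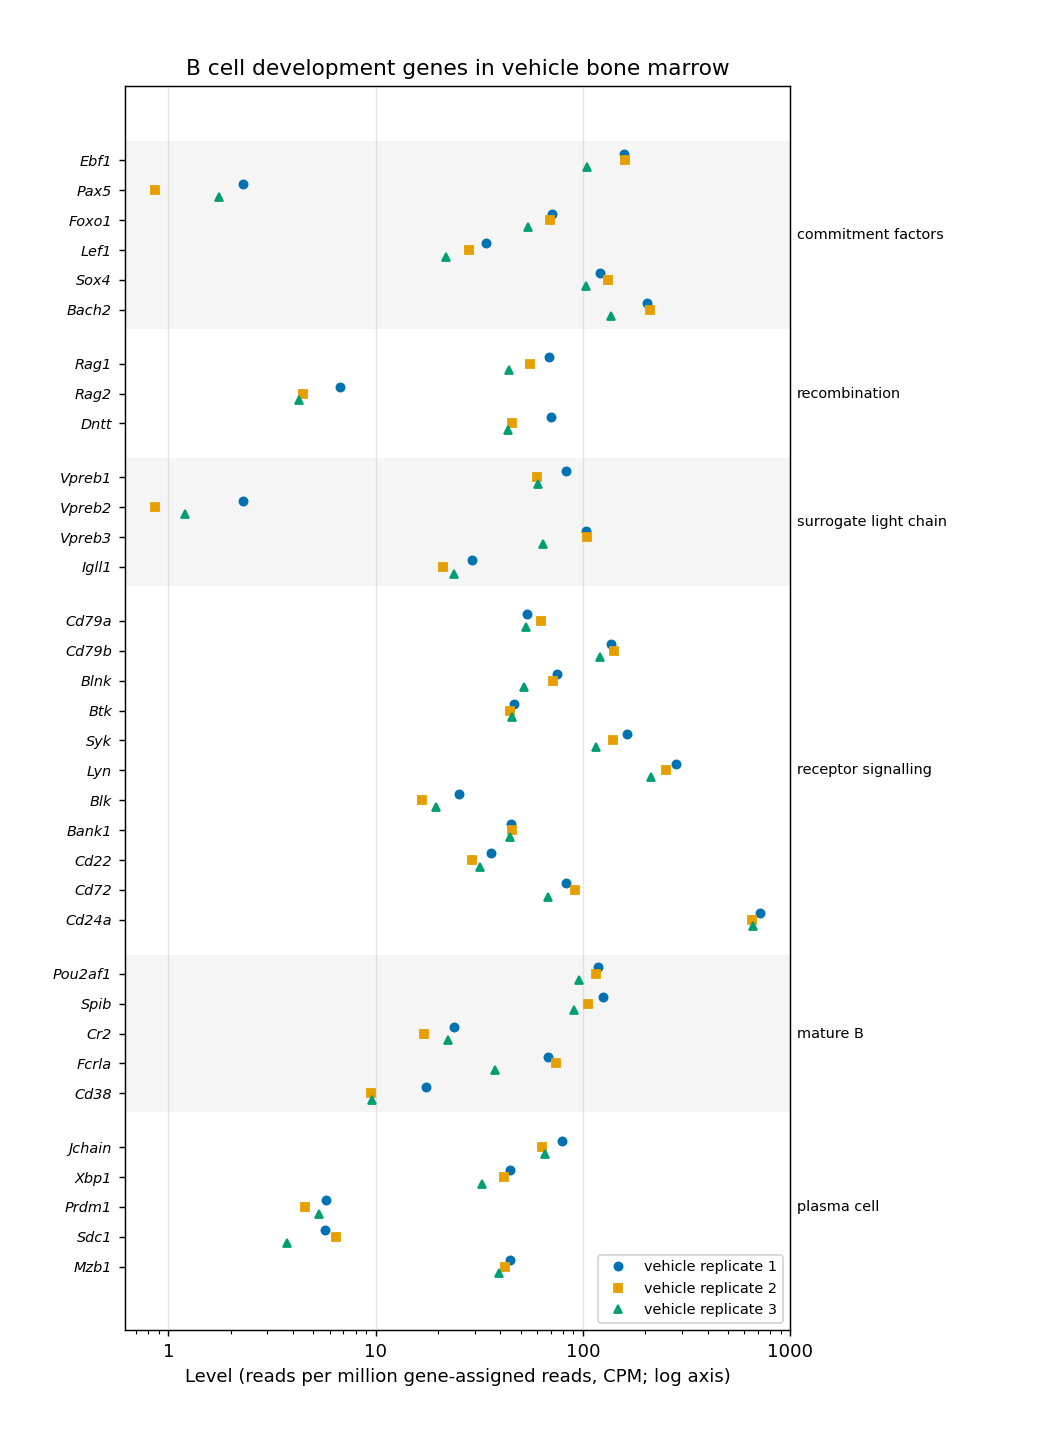
Level of each of the 34 genes (horizontal log axis, CPM on library totals) in the 3 vehicle libraries, grouped by stage, with 1 symbol per library. Cd24a lies highest, at 656 to 715 CPM, and Pax5 and Vpreb2 lie lowest, under 3 CPM in every library.

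Commitment factors summed to 589, 600 and 423 CPM in replicates 1, 2 and 3. The exact 95% Clopper-Pearson intervals were 573 to 605, 583 to 617 and 410 to 436 CPM, so replicate 3 lay apart from the others, which overlapped. In whole marrow, fewer cells of a type and less RNA per cell cannot be told apart. Of the 6 genes, 5 differed between libraries, where 56.5% of all tested genes did. Each of these 5 was lowest in replicate 3 on both scales.

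Ebf1 (GRCm38 chromosome 11, 44617317 to 45008091, plus strand), the factor that specifies the lineage, stood at 158 CPM in replicate 1, 160 in replicate 2 and 104 in replicate 3. Its highest level was 1.53-fold its lowest (exact binomial adjusted p = 2.27e-28). Bach2 (chromosome 4, 32238804 to 32586108, plus strand), a repressor that holds off plasma cell fate and acts in progenitors as well, was the highest of the group at 203, 211 and 137 CPM. The shape of Bach2 was that of Ebf1, with replicates 1 and 2 close together and replicate 3 lower, a 1.54-fold range (exact binomial adjusted p = 4.70e-35). Bach2os, an antisense entry inside the Bach2 locus, held 62, 70 and 57 reads and could not be told apart by strand.

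Foxo1, which supports Rag1 and Il7r transcription, had 71.1, 69.2 and 54.5 CPM. Sox4, a survival factor of early progenitors, had 121, 131 and 103 CPM. Lef1, a Wnt pathway factor of pro-B and T cells, had 34.2, 28.1 and 21.8 CPM, the widest range among these 3 at 1.57-fold. All 3 differed between libraries (exact binomial adjusted p = 2.49e-05, 8.89e-06 and 9.95e-05). Without replicate 3 none of the 5 differed, and the exact binomial adjusted p was 0.875 for Ebf1, 0.375 for Bach2, 0.755 for Foxo1, 0.101 for Sox4 and 0.0628 for Lef1.

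Pax5 (chromosome 4, 44524757 to 44710487, minus strand), which keeps committed cells in the B lineage, had only 21, 7 and 16 reads, or 2.29, 0.864 and 1.75 CPM. It did not pass the test (exact binomial adjusted p = 0.149). Ebf1 held 68.95 reads for each Pax5 read in replicate 1, 185 in replicate 2 and 59.5 in replicate 3, with intervals from 36.4 to 460 in all.

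Ebf1 is also made by marrow stroma. The summed stroma and endothelium markers (Cxcl12, Col1a2, Pecam1 and 5 others) were 320, 278 and 220 CPM, with 7 of 8 lowest in replicate 3 and none at 0. T and NK cell markers (Nkg7, Lck, Cd3d and 5 others) were highest in replicate 3 in sum, at 74.7, 65.9 and 89.7 CPM, and Nkg7 held 62.3% of their reads. Of these 8 genes, 4 were highest in replicate 3, 3 in replicate 2 and 1 in replicate 1. The part of stroma, T and NK cells in the Ebf1, Sox4 and Lef1 values was not tested.

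Recombination genes summed to 145, 105 and 91.5 CPM, and replicate 1 lay apart from both others, with an interval of 138 to 153 CPM against 98.5 to 113 and 85.4 to 97.9. All 3 genes were highest in replicate 1 and lowest in replicate 3 on both scales. Dntt (chromosome 19, 41029275 to 41059525, plus strand) encodes terminal transferase, which adds untemplated bases at heavy chain joints. Its levels were 70.1 CPM in replicate 1, 45.4 in replicate 2 and 43.3 in replicate 3, so replicate 1 stood alone above a pair of like values (1.62-fold, exact binomial adjusted p = 1.80e-15). Without replicate 1 it did not differ (exact binomial adjusted p = 0.677).

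Rag1 (chromosome 2, 101638282 to 101649501, minus strand), the catalytic subunit of the recombinase, had 68.5, 55.6 and 43.9 CPM, a graded order in which no pair of libraries stood together. It differed between libraries (1.56-fold, exact binomial adjusted p = 2.35e-08), and it was among the 4 members, with Syk, Lyn and Spib, that were called under every alternative run. Rag2, the partner subunit, lies 5752 bases away on the opposite strand and held 62, 36 and 39 reads, or 6.76, 4.44 and 4.27 CPM (exact binomial adjusted p = 0.0603). Rag1 had 10.1, 12.5 and 10.3 reads for each Rag2 read, and the 3 intervals, from 7.39 to 18.1 in all, overlapped. The gene of a further entry, B230118H07Rik, spans the ends of both Rag genes and held 293, 141 and 160 reads, so reads of either Rag gene may belong in part to it.

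Surrogate light chain genes summed to 218, 186 and 150 CPM, with intervals of 208 to 227, 177 to 196 and 143 to 159 CPM that did not overlap. The sum hides a difference among its members. Vpreb1 and Igll1, whose proteins pair to form the surrogate light chain, were highest in replicate 1 and lowest in replicate 2, while Vpreb3 was lowest in replicate 3 and close to equal in the other libraries.

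Vpreb1 (chromosome 16, 16868403 to 16870843, minus strand) had 82.5, 60.0 and 61.0 CPM, replicate 1 above a pair of like values (1.38-fold, exact binomial adjusted p = 4.92e-09 with all libraries and 0.885 without replicate 1). Igll1, which encodes lambda5 and lies 4417 bases from Vpreb1 on the same strand, had 29.2, 21.2 and 23.9 CPM (exact binomial adjusted p = 0.00973). That call was lost with TMM scaling (exact binomial adjusted p = 0.130), without replicate 1 (0.410) and without replicate 2 (0.0633). Inside each library Vpreb1 held 2.82, 2.83 and 2.56 reads for each Igll1 read, with overlapping intervals from 2.18 to 3.38 in all, so the pair kept a like ratio.

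Vpreb2, whose window is shown above beside that of Vpreb1, held 21, 7 and 11 reads, or 2.29, 0.864 and 1.2 CPM (exact binomial adjusted p = 0.0843). Summed over the libraries, Vpreb1 had 46.1 reads for each Vpreb2 read. The annotated transcripts Vpreb1-201 and Vpreb2-201 were identical at 739 of 759 aligned bases and shared a run of 196 bases without a mismatch, so reads of the 2 genes may have been split between entries and both levels are uncertain.

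Vpreb3 (chromosome 10, 75943057 to 75949657, plus strand), an intracellular chaperone-like relative that stays on into immature B cells, had 104, 104 and 64.5 CPM (1.62-fold, exact binomial adjusted p = 3.62e-23 with all libraries and 0.974 without replicate 3). The Vpreb3 to Vpreb1 read ratio, chosen after the values were seen, was 1.26 in replicate 1, 1.74 in replicate 2 and 1.06 in replicate 3. The interval of replicate 2, 1.55 to 1.95, lay above those of replicate 1 (1.14 to 1.39) and replicate 3 (0.940 to 1.19). This ratio holds within a library and does not depend on its scaling.

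**Figure D2:**
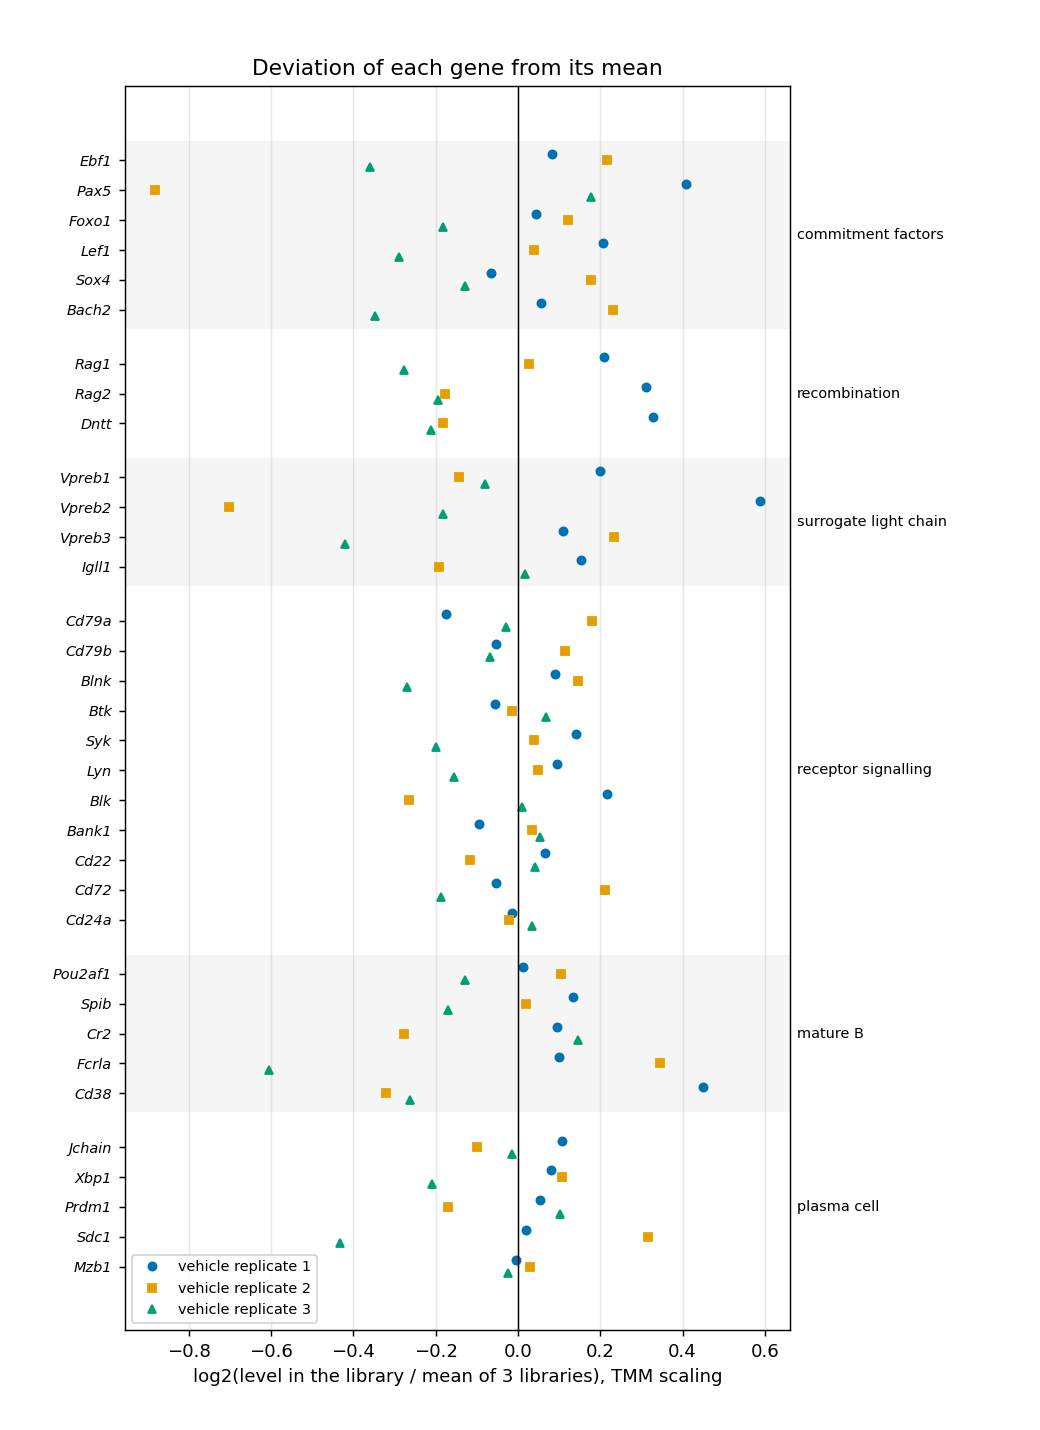
Deviation of each gene from its mean over the 3 libraries (horizontal axis, log2 units, TMM scaling), by stage, with 1 symbol per library. Replicate 3 is the lowest for 20 of the 34 genes, while for Dntt, Vpreb1 and Cd38 replicate 1 stands to the right of both others.

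Receptor signalling genes were the highest stage in sum, and their sum had the lowest CV of the 6 stages, 7.53%. The 11 measured genes held 1659, 1549 and 1427 CPM, a 1.16-fold range, and with TMM scaling the order of replicates 1 and 2 reversed, at 1557, 1578 and 1493 CPM. Cd24a, the gene of the heat-stable antigen, made up 44.0% of the summed reads and is also made by red cell precursors and granulocytes. Without Cd24a the CV was 10.8%, above the 10.4% of the plasma cell sum. Cd24a levels were 715, 656 and 664 CPM, and its call (exact binomial adjusted p = 4.99e-06) was lost with TMM scaling (0.110) and without replicate 1 (0.675). Of the 11 genes, 8 differed between libraries, where 56.5% of all tested genes did. Of the 11, 5 were called with their smallest p for a low replicate 3, where 13.1% of all tested genes were.

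Cd79a and Cd79b, the signalling chains of the B cell receptor, were measured at different levels. Cd79b (chromosome 11, 106311341 to 106314762, minus strand) had 136, 141 and 121 CPM (exact binomial adjusted p = 0.00180 with all libraries and 0.539 without replicate 3). Cd79a (chromosome 7, 24897381 to 24902197, plus strand) had 53.4, 63.0 and 53.1 CPM (exact binomial adjusted p = 0.0142 with all libraries and 0.957 without replicate 2). Replicate 3 was the lowest library for Cd79a on library totals and replicate 1 with TMM scaling, at 50.2 CPM. Within a library there were 0.394, 0.448 and 0.440 Cd79a reads for each Cd79b read, and the intervals, from 0.354 to 0.498 in all, overlapped.

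The kinases that act below the receptor are shared with other blood cells, apart from Blk. Lyn, a Src-family kinase of B and myeloid cells, had 282, 251 and 212 CPM (1.33-fold, exact binomial adjusted p = 4.86e-16). Syk, the kinase recruited to the phosphorylated receptor, followed the same order at 162, 140 and 115 CPM (1.41-fold, exact binomial adjusted p = 1.04e-12). Both kept their call when any 1 library was left out. Neutrophil markers did not share that order, being lowest in replicate 2 for 8 of 8 genes, at 87903, 68214 and 90296 CPM in sum. Monocyte and macrophage markers summed to 1309, 1283 and 1441 CPM and were split. Of these 8 genes, 4 were highest in replicate 3 and 2, Ccr2 and Vcam1, were lowest there. Ccr2 fell in the order of Lyn on library totals, at 179, 171 and 148 CPM. With TMM scaling it had 168, 174 and 155 CPM, while Lyn kept its order at 265, 256 and 222 CPM. Ly6c2, the most abundant of these markers, had 439, 429 and 599 CPM on library totals. The part of myeloid cells in the Lyn and Syk values was not tested. Inside the Lyn locus, by the RefSeq annotation of GRCm38.p6 (chromosome 4, 3714964 to 3716813), the noncoding entry 6330407A03Rik held 1744, 1381 and 1277 reads. Lyn had 1.48, 1.48 and 1.52 times as many, and these ratios do not show whether reads were shared. Because of its place inside Lyn, the entry was not taken as a separate measurement.

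Blk, the Src-family kinase largely limited to B cells, had 25.2, 16.7 and 19.6 CPM (exact binomial adjusted p = 0.00196 with all libraries and 0.279 without replicate 1). Btk, the Tec-family kinase downstream of Syk, stood level at 46.7, 44.3 and 45.6 CPM (exact binomial adjusted p = 1), with a CV of 2.63%. Bank1, a B cell scaffold that binds Lyn, was the most even member on library totals at 44.9, 45.3 and 44.7 CPM (exact binomial adjusted p = 1), with a CV of 0.700%. With TMM scaling its levels were 42.2, 46.1 and 46.7 CPM.

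Blnk (chromosome 19, 40928927 to 40994535, minus strand), the adaptor that links Syk to phospholipase C, had 74.7, 71.6 and 52.2 CPM (1.43-fold, exact binomial adjusted p = 4.62e-09 with all libraries and 0.583 without replicate 3). Blnk and Dntt are neighbours, 34739 bases apart, but their patterns were unlike. Dntt held 0.939 reads for each Blnk read in replicate 1, 0.634 in replicate 2 and 0.830 in replicate 3, and the interval of replicate 2, 0.555 to 0.724, just missed that of replicate 3, 0.725 to 0.951. This pair was chosen after its values were seen.

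Of the inhibitory receptors, Cd22, a sialic acid-binding lectin, had 36.0, 29.2 and 31.7 CPM (exact binomial adjusted p = 0.102). Without replicate 3 it was called (exact binomial adjusted p = 0.0400). Cd72, a C-type lectin of B cells, had 83.0, 91.8 and 67.9 CPM (exact binomial adjusted p = 2.48e-06 with all libraries and 0.113 without replicate 3). The Cd72 gene overlaps Tesk1, a kinase gene on the opposite strand, by 1603 bases at the 3′ end of Cd72, and Tesk1 held 777, 742 and 595 reads against 761, 744 and 620 for Cd72. The Cd72 to Tesk1 ratios of 0.979, 1.0 and 1.04 had intervals that all include 1, which by itself does not show that reads were shared. Because the genes overlap and the strand setting was not given, reads may have been counted for either entry. The Cd72 level is therefore uncertain.

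**Figure D3:**
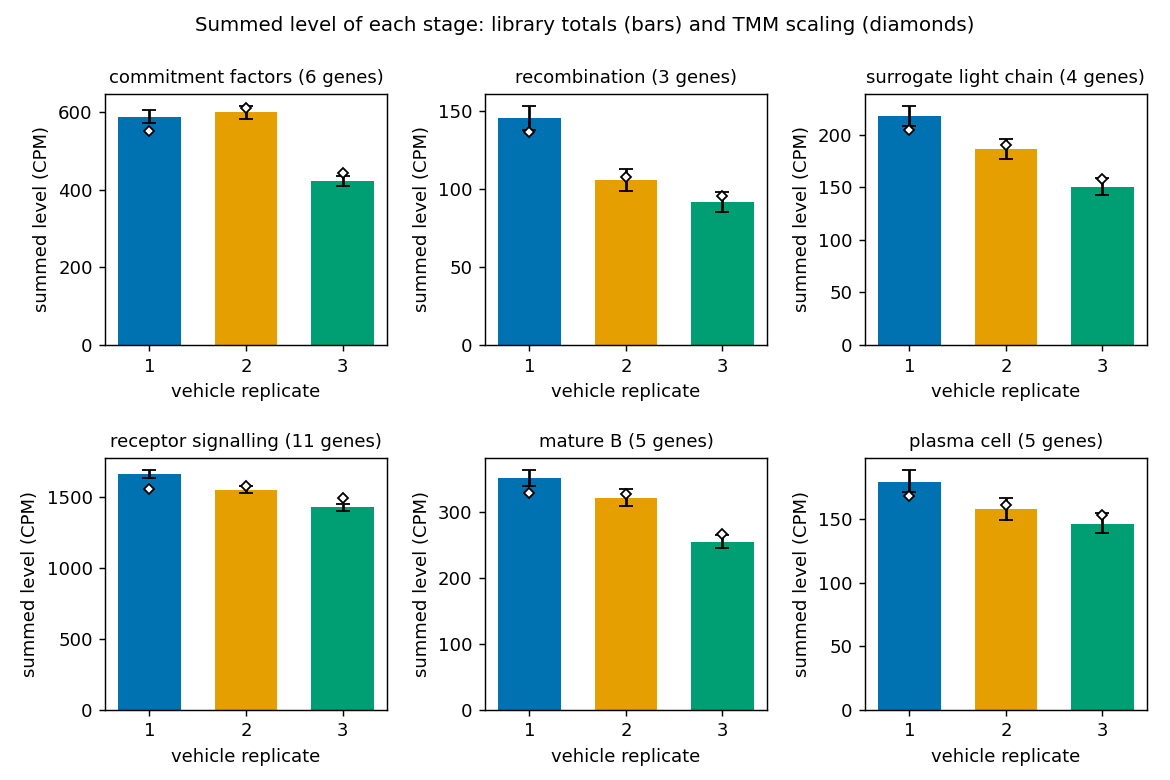
Summed level of the measured genes of each stage (vertical axis, CPM) in the 3 vehicle libraries, with bars on library totals, exact 95% Clopper-Pearson intervals as error bars and TMM-scaled values as diamonds. Replicate 3 is lowest in all 6 panels on both scales, and the receptor signalling panel is the flattest.

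Mature B cell genes summed to 352, 323 and 256 CPM. All 5 had at least 300 reads and differed between libraries, though not in the same order. In that read class 66.0% of all genes differed. Pou2af1, the octamer coactivator, had 118, 116 and 95.9 CPM (exact binomial adjusted p = 1.22e-05 with all libraries and 0.803 without replicate 3). Spib, an Ets-family factor of B cells and plasmacytoid dendritic cells, had 124, 106 and 90.4 CPM (1.38-fold, exact binomial adjusted p = 1.54e-08). Markers of plasmacytoid dendritic cells (Tcf4, Siglech, Ccr9 and 3 others) summed to 327, 332 and 303 CPM, and their part in the Spib values was not tested.

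Fcrla (chromosome 1, 170917576 to 170927583, minus strand), an intracellular Fc receptor-like protein of B cells, had 68.2, 74.5 and 37.5 CPM. Replicate 3 lay far below the others, a 1.99-fold range (exact binomial adjusted p = 4.54e-26 with all libraries and 0.219 without replicate 3). Cr2, the complement receptor of mature and marginal zone B cells, was instead lowest in replicate 2, at 23.9, 17.0 and 22.2 CPM (exact binomial adjusted p = 0.0122 with all libraries and 0.597 without replicate 2). Cd38, an ectoenzyme carried by B cells and many other leukocytes, had 17.6, 9.50 and 9.63 CPM, replicate 1 standing above a pair of like values (1.85-fold, exact binomial adjusted p = 1.51e-06 with all libraries and 0.971 without replicate 1).

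Plasma cell genes summed to 180, 158 and 147 CPM, and 2 of the 5 differed between libraries, where 56.5% of all tested genes did. Jchain (chromosome 5, 88519809 to 88527891, minus strand), which joins IgM and IgA into polymers, was the highest at 79.4, 63.4 and 65.6 CPM. Its call (exact binomial adjusted p = 0.000204) was lost with TMM scaling (0.102) and without replicate 1 (0.723). Xbp1, the factor that expands the secretory pathway and is made in many cell types, had 44.3, 41.6 and 32.5 CPM (exact binomial adjusted p = 0.000392 with all libraries and 0.537 without replicate 3).

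Mzb1, an endoplasmic reticulum cochaperone of B and plasma cells, was nearly level at 44.6, 42.1 and 39.5 CPM, and at 41.9, 42.8 and 41.3 CPM with TMM scaling (exact binomial adjusted p = 0.531 on library totals). Jchain held 1.78, 1.51 and 1.66 reads for each Mzb1 read, with overlapping intervals from 1.31 to 2.01 in all. Prdm1, which encodes Blimp1, the repressor that drives plasma cell fate, had 53, 37 and 49 reads (5.78, 4.57 and 5.36 CPM, exact binomial adjusted p = 1). Sdc1, the plasma cell antigen CD138, had 52, 52 and 34 reads (5.67, 6.42 and 3.72 CPM, exact binomial adjusted p = 0.0758), and was called without replicate 1 (0.0395). At these depths Prdm1 and Sdc1 stood more than 10 times above what a count of 0 allows, but their counting error was wide.

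The balance of early to later B cell genes was read within each library, where scaling plays no part. The early set was the recombination and surrogate light chain genes, and the later set was Cd22, Cd72, Cr2, Bank1, Blk and Fcrla. There were 1.29 early reads for each later read in replicate 1 (interval 1.23 to 1.36), 1.06 in replicate 2 (1.0 to 1.13) and 1.08 in replicate 3 (1.02 to 1.15). Replicate 1 thus lay above the others, which overlapped. The mean log2 ratio was 0.19 ± 0.16 (SD, n = 3), close to the spread itself, and as a difference of mean log2(CPM + 1) over the genes the direction was reversed, at -0.61. Without Cd72, whose reads may be shared with Tesk1, the ratios were 1.83, 1.60 and 1.55, and the interval of replicate 1, 1.73 to 1.94, again lay above the others. Leaving a gene out of the later set alone raises the ratio by construction. With each set without its most abundant gene, Vpreb3 and Cd72, the mean log2 ratio was 0.20 ± 0.18 (SD). Recombination genes held 0.247, 0.176 and 0.216 reads for each commitment factor read, a pair of sums chosen after the values were seen. The interval of replicate 2, 0.163 to 0.189, lay below those of replicates 1 and 3, which overlapped.

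**Figure D4:**
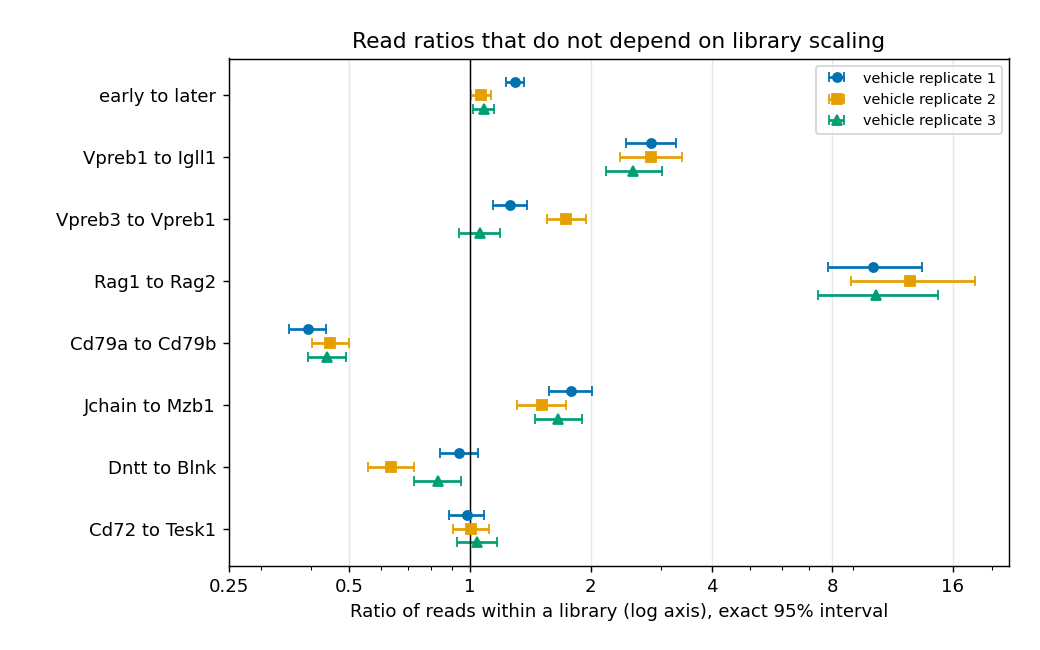
Read ratios within a library (horizontal log axis) for the early to later sets and 7 gene pairs, with 1 symbol per library and exact 95% intervals. The Vpreb1 to Igll1, Rag1 to Rag2 and Cd79a to Cd79b ratios overlap across libraries, the Vpreb3 to Vpreb1 ratio of replicate 2 stands above the others, and Cd72 to Tesk1 sits at 1.

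Other genes of the pathway, from lists that hold none of the members, were read beside them. Of 69 such genes, 66 were tested and 42 differed between libraries (63.6%), where 56.5% of all tested genes did. On library totals 34 were lowest in replicate 3 (42.4% of all genes) and 37 highest in replicate 1 (49.2%). With TMM scaling these were 28 (32.7%) and 29 (33.2%). Among B lineage factors 10 of 14 differed. Ikzf1, which encodes Ikaros, fell in the order 313, 280 and 249 CPM (exact binomial adjusted p = 3.87e-11), Mef2c had 312, 356 and 323 CPM (1.03e-05) and Irf8 had 318, 333 and 313 CPM (0.0964). Of the cytokine and adhesion receptors 6 of 9 differed, with Cd44 at 256, 181 and 197 CPM, Cxcr4 at 215, 183 and 180 CPM and Spn at 188, 159 and 155 CPM, all of them highest in replicate 1. Il7r, the interleukin receptor that pro-B cells need, had 104, 106 and 84.1 CPM (exact binomial adjusted p = 3.29e-06), the order seen for Ebf1.

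The share of all tested genes that differed, to be set beside each list here, was 56.5%. Of the further signalling genes 12 of 16 differed, among them Cyfip2 at 376, 342 and 274 CPM and Ptpn6, the phosphatase SHP1, at 223, 205 and 229 CPM. Prkcb had 474, 487 and 461 CPM (exact binomial adjusted p = 0.147). End joining seals the breaks that RAG makes in all cells that use it. Of the further genes listed for recombination and end joining, 5 of 10 differed. Hmgb1 had 129, 114 and 97.8 CPM and Xrcc6, which encodes Ku70, had 35.8, 34.7 and 25.0 CPM, while Dclre1c, the Artemis nuclease gene, had 24.6, 27.1 and 26.4 CPM (exact binomial adjusted p = 1). Of the further mature B cell genes 7 of 12 tested differed, with Ms4a1, which encodes CD20, at 97.5, 114 and 75.7 CPM. Ly6d had 168, 191 and 168 CPM. Of the further plasma cell genes 3 of 6 tested differed. Irf4, which acts in light chain recombination and in plasma cells, had 56.6, 65.1 and 36.2 CPM (exact binomial adjusted p = 2.04e-15). Creld2 had 10.4, 14.3 and 4.92 CPM (exact binomial adjusted p = 6.44e-08). Both were lowest in replicate 3 by more than 1.5 times. Edem1 had 33.3, 28.7 and 27.0 CPM (exact binomial adjusted p = 0.0802).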

How the data were processed

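RNA of 3 vehicle bone marrow libraries, numbered as in the labels, was read from the polyadenylated end (500 ng of total RNA, Lexogen QuantSeq, per the labels' protocols). Bowtie2, bedtools and mm10 are named in the submitters' processing notes, while versions, annotation, strand setting and normalization were not given in the sources used here. The authors deposited 1 log2 value per gene symbol and library, read from the values as log2(x + 1) with x per 1000000 reads of a scaled library size. Whole reads were recovered for 100% of values within a tolerance of 1e-06, and the library sizes used by the authors exceeded the recovered totals 1.12, 1.03 and 1.01 times. The design assumed counts, and its exact binomial test ran on the recovered reads (Python 3.11.15, scipy 1.17.1). The smallest of 3 p-values was multiplied by 3 and adjusted over all genes with at least 30 reads. Only the spread between these libraries is tested, and intervals cover counting error only, since no molecular identifiers are named. The test was checked on simulated counts with counting noise only, so that check does not cover further spread between real libraries. Positions are from GENCODE M21 (GRCm38). Members and lists were chosen with earlier results of these data known. The named genes were all members and the 3 most abundant genes of each other list, of which the text gives a part. Il7r, Ccr2, Tesk1, B230118H07Rik, 6330407A03Rik, 5730488B01Rik and Bach2os fall outside that rule and were named after their values were seen. Alternatives covered scaling, read minimum, test, members and each library.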

Additional observations from a re-analysis of the deposited data

How the results depend on the processing

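The number of members that differed was 25 and went from 14 to 22 when 1 library was left out, with 14 reached without replicate 3, while 34.8% to 39.0% of all genes were then called in place of 56.5%. It was 22 with TMM scaling, with median-of-ratios scaling and without the 20 most abundant genes, 21 with the authors' scaling (51.8% to 52.2% of all genes under these 4), and 25 with a minimum of 10 reads, with no minimum and with a chi-square test. No stage sum moved past its SD with TMM, median-of-ratios or the authors' scaling or without any 1 library. The runs without 1 library could not have shown otherwise, since leaving out 1 of 3 values cannot shift a mean by its SD. TMM and median-of-ratios scaling keep the average library size, so they could hardly move a mean either. Without the 20 most abundant genes the denominators shrink by construction, and the means became 962, 203.5, 330.4, 2771, 555 and 289 CPM for commitment, recombination, surrogate light chain, receptor signalling, mature B and plasma cell genes. Without the most abundant gene of each stage (Bach2, Rag1, Vpreb3, Cd24a, Pou2af1 and Jchain) they became 354, 58.1, 94.0, 867, 200.2 and 92.0 CPM, and the surrogate light chain sum was then lowest in replicate 2. The early to later log2 ratio of 0.19 was 0.20 without the most abundant gene of each set. It was 0.73 without Cd72 alone, which raises it by construction. That alternative and the authors' scaling were added after seeing the data. The ratio reversed to -0.61 as a difference of mean log2(CPM + 1), which gives the low Rag2 and Vpreb2 the same weight as other genes. It was 0.10 to 0.24 without 1 library. Counting error limits Pax5, Vpreb2, Rag2, Prdm1 and Sdc1, which had 39 to 139 reads in all. No paired analysis was possible because the labels give 1 group only.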

Other observations

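Leaving out 1 library ended calls among the members, as it did over all genes, where 56.5% differed with all libraries and 34.8% to 39.0% without 1 of them. Leaving out replicate 3 ended 12 of the 25 calls, those of Ebf1, Foxo1, Lef1, Sox4, Bach2, Vpreb3, Cd79b, Blnk, Cd72, Pou2af1, Fcrla and Xbp1. Leaving out replicate 1 ended 7, those of Dntt, Vpreb1, Igll1, Blk, Cd24a, Cd38 and Jchain, and leaving out replicate 2 ended 3, those of Igll1, Cd79a and Cr2. Each fit without a library has fewer reads and samples.

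The minus strand of the Pax5 locus carries the gene, and the plus strand entry 5730488B01Rik inside it held 106, 49 and 74 reads, more than Pax5 itself in every library.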
